A study of Mus musculus with 25 samples.

Results

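Back skin of mice 9 weeks old was compared with back skin of mice 23 days old, ages at which mouse back skin is known for the second and the first resting phase of the hair cycle. The comparison took the 3 arrays labelled 9-week and the 3 labelled day 23, 6 of the 25 arrays of a time course of postnatal mouse skin, and all probe sets other than the hybridisation controls. Each array was labelled as 1 mouse and hybridised with total RNA from whole back skin. Epidermis, follicles, dermis, fat, muscle, vessels and blood cells were therefore measured together. Both groups were described by age alone. No treatment, genotype or transgene was named for either, and strain and sex are not stated by the labels. The labels number the mice 1 to 3 within each age, and the p-values below measure the spread between samples labelled as separate mice. That spread is 1 estimate shared by the 18 arrays of the ages up to 9 weeks, so it is not that of the 6 compared arrays alone.

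The hair follicle cycles between growth, when cells at its base divide and build the hair shaft and its sheaths, regression, and rest, when the lower follicle is gone and the club hair stays anchored. In young mice the first cycles run nearly in step over the back, and later the follicles of different regions and animals drift apart. The skin around the follicles changes with age as well. Fibroblasts of the young dermis lay down collagen and elastic fibres, which pass as new proteins through the endoplasmic reticulum on their way out of the cell.

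Values are the deposited intensities in arbitrary units, scaled per array. Differences are 9 weeks minus day 23 on the log2 scale with the standard error (SE) of a limma fit and a Benjamini-Hochberg adjusted p over 8835 probe sets. A gene was called at an adjusted p under 0.05, was represented by its brightest probe set, and is written as having risen or fallen only where it was called. Levels of different genes are not compared, because probe sets differ in how brightly they hybridise.

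The ages also differed as arrays. The highest value on an array was 22034 to 25990 units on day 23 and 55899 to 67623 units at 9 weeks, while the medians were close, 220.4 to 221.1 and 197.8 to 206.3 units. The day 23 mice correlated with each other at 0.965 to 0.968 over log2 values, and the 9-week mice at 0.897 to 0.941. Xist, a transcript of the inactive X chromosome, read 1347, 8.7 and 8.3 units in day 23 mice 1, 2 and 3 and 284, 732 and 5.5 units in 9-week mice 1, 2 and 3. The Y-linked Eif2s3y read 3.4, 312 and 443 units and 4.7, 4.1 and 236 units in the same order. The male marker was thus high in 2 of 3 day 23 mice and in 9-week mouse 3 alone, so that sex and the state of mouse 3 described below cannot be told apart within the 9-week group. With the Xist level as a covariate, 1105 probe sets were higher and 1587 lower. On other arrays of the fit both markers were high together. On day 6 Xist read 353.4 to 558.1 and Eif2s3y 112.1 to 127.9 units. On day 17 they read 684.2 to 897 and 162.3 to 235.3 units. Day 1 mice 1 and 3 read 508.7 and 559.2 units of Xist and 254.6 and 245 of Eif2s3y. Whether such arrays held RNA of more than 1 mouse was not tested. With the 6 arrays fitted alone, 660 probe sets were higher and 925 lower.

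Of the 8835 probe sets tested, 1116 were higher at 9 weeks (12.6%) and 1627 were lower (18.4%). Represented once per gene, 896 of 6569 genes were higher (13.6%) and 1192 lower (18.1%), with a median difference of -0.04 over all genes. Counts for every gene list below are to be read against these shares. The 3 mice of one age lay wholly above or below the 3 of the other for 2664 genes (40.6%), and for 1914 of the 2088 genes called. A change of at least 2-fold was reached by 498 called genes, of which 157 were higher and 341 lower.

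The balance of the calls depended on the scaling. Higher calls made up 40.7% of all calls with the deposited scaling, 45.5% after quantile normalisation (1154 higher, 1382 lower) and 58.6% after centring each array on its median (1603 higher, 1134 lower), which moved the median difference of all probe sets from -0.07 to 0.07. The difference also rose with the level. Its median was -0.18 for probe sets between 128 and 256 units and 0.63 for the 143 probe sets above 8192 units, of which 115 were higher and 2 lower. After quantile normalisation the median of those 143 was 0.03, with 31 higher and 30 lower. Increases of genes that averaged above 8192 units are therefore given with the quantile-normalised value, and the brightness of the 9-week arrays cannot be told apart from age.

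**Figure D1:**
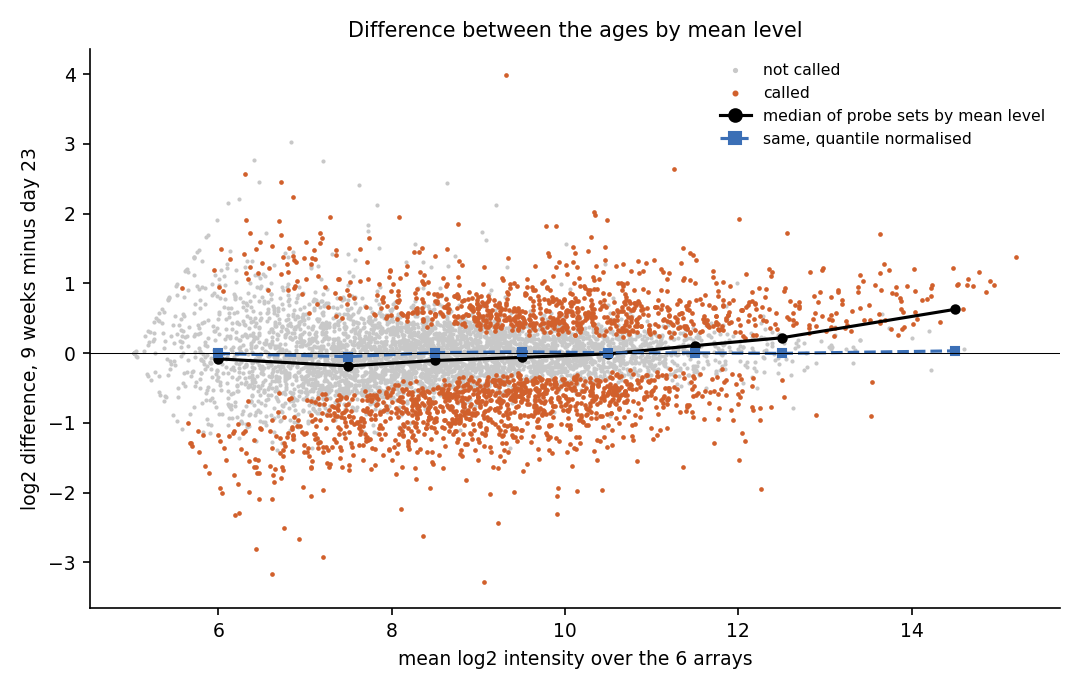
Difference between the ages (log2, 9 weeks minus day 23) against mean log2 intensity over the 6 arrays, 1 point per gene, called genes in orange. The black line joins the medians of probe sets grouped by mean level and climbs to 0.63 above 8192 units, while the dashed line, after quantile normalisation, stays near 0.

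Keratins and keratin-associated proteins of the hair shaft, which are made in growing follicles, were low in all 3 day 23 mice and in 9-week mice 1 and 2. Their summed intensity over 23 measured genes was 6706, 6186 and 6221 units on day 23, 7403 and 7362 units in 9-week mice 1 and 2, and 190640 units in 9-week mouse 3. Mouse 3 alone thus carried hair shaft transcripts, and the 9-week group was not uniform. The 12 measured genes of the inner root sheath, the layer that moulds the growing hair, summed to 7850 to 8865 units on day 23, to 8518 and 7604 units in 9-week mice 1 and 2, and to 45021 units in mouse 3.

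Krt25, a keratin of the inner root sheath, read 32.1, 11.4 and 31.2 units on day 23 and 16.5, 4.7 and 10375 units in 9-week mice 1, 2 and 3. Krtap3-1, a keratin-associated protein that cross-links hair keratin, read 368, 251 and 262 units on day 23 and 207, 163 and 26434 units at 9 weeks. Krtap8-1, of the glycine- and tyrosine-rich class, read 139, 104 and 96.4 units and 53.3, 51.5 and 23112 units. In each of these genes mouse 3 stood far above the other 5 mice, and mice 1 and 2 were below the highest day 23 mouse. Krtap9-1 read 46.4, 41.8 and 26.8 units on day 23 and 80.6, 33.0 and 13107 units at 9 weeks, and Krtap14 read 153, 117 and 84.8 and 94.7, 50.3 and 12263.5 units. The hair keratins Krt34 and Krt83 reached 8614 and 6167 units in mouse 3, and at most 94.2 and 42.0 units in the others. Krtap19-5, Gm10228 and Gm10229 reached 2875.5, 3944 and 24690.4 units in mouse 3 and at most 8.3, 40.2 and 208 units elsewhere. None of these 10 genes, which lay farthest above the other mice in mouse 3, was called as differing between the ages.

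Over all genes, 70 were more than 2-fold and 29 more than 8-fold above every other mouse in 9-week mouse 3. No gene was 8-fold above the others in any of the remaining 5 mice. In 9-week mouse 1, 42 genes were more than 2-fold above and 89 more than 2-fold below every other mouse, against 55 below in mouse 3, and the other 4 mice had 2 to 15 above and 7 to 49 below. The 23 hair shaft genes had a median difference of 1.57, with 3 called higher and none lower. Without mouse 3 the median was 0.01, with 3 higher and 3 lower, and with mouse 1 or mouse 2 left out 16 were higher. The 3 lower without mouse 3 were Krtap8-1, Krtap3-1 and Krtap14, with differences of -1.09, -0.65 and -0.73 in that fit (adjusted p = 4.58e-05, 0.00384 and 0.0178). Selenbp1, a selenium-binding protein kept in the hair list, read 309, 147 and 408 units on day 23 and 568, 555 and 561 units at 9 weeks, the groups did not overlap, and it rose with and without mouse 3 (1.08 ± 0.25, adjusted p = 0.00376). Krt32 and Krtap5-1 were the other 2 called. At the later ages the mean of the hair list stood 4.14 to 6.22 above day 23 on the log2 scale in 1 of 3 mice at 5 months and 3 of 4 at 1 year, against 4.71 in 9-week mouse 3.

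**Figure D2:**
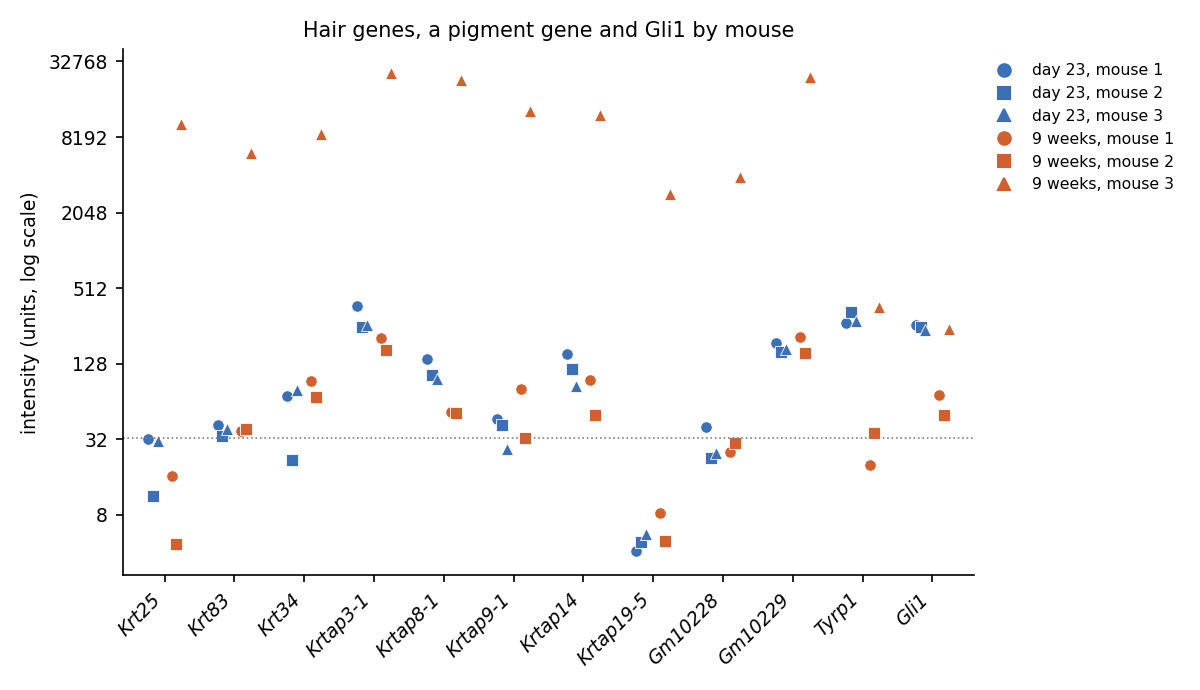
Intensity (log scale) of the 10 genes farthest above the other mice in 9-week mouse 3, with Tyrp1 and Gli1, 1 point per mouse. The dotted line is the floor of 32.7 units used in the fit, and the triangles of 9-week mouse 3 lie above every other mouse for each hair gene, from 2875.5 units for Krtap19-5 to 26434 units for Krtap3-1.

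Cell division genes were called in 1 direction with the deposited scaling and all 6 mice. Of 44 measured, 13 fell and none rose (median -0.34), where 18.1% of all genes fell. The ages were apart for 9 of the 13. After quantile normalisation 9 fell (median -0.22), and after centring on medians 8 fell and 1 rose (median -0.20). With the 6 arrays fitted alone 5 fell, without 9-week mouse 3 20 fell, and without day 23 mouse 3 8 fell. Ccna2, the cyclin of DNA synthesis and entry into mitosis, read 923, 988 and 882 units on day 23 and 344.5, 295 and 409 units at 9 weeks. The groups were apart, and it fell by 1.42 ± 0.16 (adjusted p = 9.26e-06). H2az1, a histone variant, and Smc2, a condensin subunit, had differences of -1.07 ± 0.18 (adjusted p = 0.000248) and -1.35 ± 0.25 (adjusted p = 0.000676).

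Among 33 regulators of follicle growth, 8 fell and 2 rose (median -0.07), shares close to those of all genes, and with the 6 arrays alone 2 fell. Without 9-week mouse 1, 5 rose, and without 9-week mouse 2, 4 rose and 5 fell. Members of the hedgehog pathway, in which the receptor Ptch1 restrains Smo and Gli1 is a target, were among those that fell. Ptch1 read 400.2, 469.7 and 486 units on day 23 and 225, 274 and 310.2 units at 9 weeks, with no overlap, and fell by 0.75 ± 0.15 (adjusted p = 0.00108). Its second probe set gave 0.16 (adjusted p = 0.609). Smo fell by 0.66 ± 0.15 (adjusted p = 0.003). Gli1 read 259, 253 and 237 units and 71.9, 49.9 and 241 units: it was low in 9-week mice 1 and 2 and within the day 23 range in mouse 3. It fell by 1.39 ± 0.40 (adjusted p = 0.0136), and without mouse 3 the difference was -2.06. Shh itself, the ligand, read 32.4, 109.6 and 105 units and 36.1, 127 and 235 units, with overlapping groups and no call (adjusted p = 0.503).

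Dkk2, a secreted regulator of Wnt signalling, read 146, 171 and 164 units on day 23 and 16.3, 109 and 14.9 units at 9 weeks and fell by 1.71 ± 0.38 (adjusted p = 0.00241). Fst, the activin antagonist follistatin, fell by 1.02 ± 0.19 (adjusted p = 0.000741), from 725, 656 and 725 units to 416, 247.5 and 399 units. The ages were apart for both genes. Bmpr1a, a receptor for bone morphogenetic proteins, Sfrp2, a Wnt antagonist, and Wnt10a, a Wnt ligand, had differences of -1.02, -0.67 and -0.38 (adjusted p = 0.00496, 0.0308 and 0.0242). The ligands Bmp2, Bmp4 and Fgf18, known for holding follicles at rest, were not called, at 0.41 ± 0.26, -0.16 ± 0.15 and 0.78 ± 0.57. A second, dimmer probe set of Bmp4 stood at -2.05 (adjusted p = 7.44e-05), so the gene's call depends on the probe set. Lef1 and Sfrp1 were not called either, at -0.13 and 0.37. Notch1 and Igf1 rose by 0.40 and 0.45 (adjusted p = 0.0155 and 0.0274), and each has a second probe set in the other direction that was not called (-0.81 and -0.62).

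Of 14 genes of resting follicles and bulge stem cells, 3 fell and none rose, where 18.1% of all genes fell. Tcf7l1, a transcription factor of bulge cells, read 853, 878 and 844 units on day 23 and 617, 575 and 466 units at 9 weeks and fell by 0.65 ± 0.10 (adjusted p = 0.000164), with no overlap. Gas1, a hedgehog co-receptor, fell by 0.54 ± 0.12, and the integrin Itga6 by 0.86 ± 0.20 (adjusted p = 0.00204 and 0.00375). Cd34, a bulge surface marker, overlapped between the ages (1601, 1894 and 2102 against 2559.9, 1725 and 1184 units) and was not called.

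Of 9 dermal papilla genes, 4 fell and 1 rose (median -0.65). Vcan, the proteoglycan versican, read 472, 695 and 657 units on day 23 and 200.3, 109.9 and 94.2 units at 9 weeks, with no overlap, and fell by 2.23 ± 0.23 (adjusted p = 2.94e-06). Igfbp3, an insulin-like growth factor binding protein, fell by 0.65 ± 0.14 (adjusted p = 0.00218). The member that rose was Alpl, alkaline phosphatase, at 1.16 ± 0.37 (adjusted p = 0.0255), chosen here after its values were seen. Pigment genes fell for 4 of 10 measured, a count that was 0 with the 6 arrays alone and 1 to 2 in 5 of the 6 fits that left out 1 mouse. Tyrp1, an enzyme of melanin synthesis, read 271, 331 and 279 units on day 23 and 20.1, 35.9 and 362 units at 9 weeks: 9-week mice 1 and 2 were at or near the floor, and mouse 3 was the highest of all 6. It fell by 1.96 ± 0.59 (adjusted p = 0.0172), and 2 further probe sets of Tyrp1 gave 0.07 and 0.21 and were not called. In whole skin, fewer cells of a type and less RNA per cell cannot be told apart, here and for every cell type below.

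The largest decrease that separated the ages was in Kdelr3, a receptor that returns escaped chaperones from the Golgi to the endoplasmic reticulum. It read 1369.5, 1897 and 1823.5 units in day 23 mice 1, 2 and 3 and 135, 178 and 210.3 units at 9 weeks. Every day 23 mouse stood far above every 9-week mouse, and the gene fell by 3.29 ± 0.17 (adjusted p = 2.53e-09), 9.78-fold. Dnajb9, a co-chaperone of the same compartment, fell from 565, 826.5 and 1156 units to 105, 146 and 149 units, a difference of -2.63 ± 0.23 (adjusted p = 8.56e-07), while a second probe set of Dnajb9 was not called (-0.13, adjusted p = 0.799). Gpx7, a peroxidase of the endoplasmic reticulum, fell from 223, 266 and 289.7 units to 27.0, 83.9 and 34.1 units, a difference of -2.51 ± 0.39 (adjusted p = 0.000163).

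A list of genes of the secretory pathway was drawn up after these values were seen, and its counts describe the pathway and support nothing on their own. Of 71 measured, 36 fell, 6 rose and 29 were not called, with a median of -0.42 against -0.04 over all genes, and 34 of the 36 had no overlap between the ages, as did 1914 of the 2088 called genes of all kinds. Leaving out any 1 mouse gave 32 to 36 that fell. Enzymes that fold and modify collagen were among them. Serpinh1, the collagen chaperone, read 5866, 8094 and 7246 units on day 23 and 3335, 2280.5 and 1866 units at 9 weeks and fell by 1.53 ± 0.16 (adjusted p = 3.1e-06). Ppic, a proline isomerase, went from 2017, 2217 and 2528.5 units to 508, 582.5 and 627 units and fell by 1.98 ± 0.12 (adjusted p = 1.91e-08). The 2 ages did not overlap for Serpinh1 or for Ppic.

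Pdia3, a disulfide isomerase, read 1134, 1613 and 1708.5 units on day 23 and 501, 599 and 575 units at 9 weeks and fell by 1.39 ± 0.16 (adjusted p = 9.26e-06). Rcn1, a calcium-binding protein of the lumen, fell by 1.93 ± 0.16 (adjusted p = 4.59e-07). P4hb, a subunit of prolyl 4-hydroxylase, was low in 9-week mice 1 and 2 and at a day 23 level in mouse 3 (2233, 1524 and 1741 against 523, 433 and 1788 units, a fall of 1.29 ± 0.36, adjusted p = 0.011), and its second probe set stood at 0.29 (adjusted p = 0.573). Ssr2 and Rpn2, of translocation and glycosylation, and the coat proteins Copa and Sec23a fell as well, with differences of -0.85, -0.78, -0.73 and -0.65. The members that rose were Sar1b, a small GTPase of vesicle budding (1.52 ± 0.21, adjusted p = 5.75e-05), Lman2, Sec23b, Dad1, Srpr and Ssr3. Apart from Sar1b these lay between 0.30 and 0.48, and none of the 6 rose when probe sets of a gene were averaged.

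Xbp1, the transcription factor that drives genes of this compartment, read 2261, 2416 and 2859 units on day 23 and 1007, 1361 and 1335 units at 9 weeks, with no overlap, and fell by 1.03 ± 0.13 (adjusted p = 2.6e-05). Hspa5, the chief chaperone of the lumen, fell by 0.74 ± 0.12 (adjusted p = 0.000176), from 2992, 4063 and 3699 units to 2262, 1779.9 and 2409 units. Hsp90b1 and Calu, also of the lumen, were not called, at 0.12 and -0.24.

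Promoters of genes of this pathway are known to carry a few short elements, and 60 of the 71 secretory genes and 13 of the 16 clock genes measured had an entry in RefSeq's table of promoters (GRCm38.p6). The 250 bases before the gene start were searched on both strands. The endoplasmic reticulum stress element (CCAAT, any 9 bases, CCACG) was held by 6 of 60 secretory genes and by 35 of 27025 genes in all (0.13%). It stood in 3 of the 30 that fell, Hspa5, Dnajc3 and Pdia6, and in 3 of the 24 not called, Hsp90b1, Creld2 and Canx. The element UPRE (TGACGTGG), bound by Xbp1 and Atf6, was held by 3 of 60 (5.0%) and 0.603% of all genes, in Kdelr3, Copb1 and Txndc5, of which Kdelr3 and Copb1 fell. The E-box (CACGTG) was held by 4 of 60 and 6.86% of all genes, and the core of a UPRE can overlap it by part of its letters. A match describes the letters and is not shown to be a site in use.

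The promoters of Kdelr3, the gene with the largest fall, and of Hspa5 are shown because each holds 1 such element, printed in capitals. Kdelr3 (chr15:79516158-79516407, plus strand) has the UPRE on the other strand, reading CCACGTCA from 30 bases before the start. Hspa5 (chr2:34771840-34772089, plus strand) has the stress element from 65 bases before the start.
Kdelr3: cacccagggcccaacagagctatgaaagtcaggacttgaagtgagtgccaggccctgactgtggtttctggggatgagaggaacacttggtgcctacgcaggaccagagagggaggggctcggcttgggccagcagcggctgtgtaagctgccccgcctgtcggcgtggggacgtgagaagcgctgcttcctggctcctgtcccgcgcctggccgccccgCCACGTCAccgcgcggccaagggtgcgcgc
Hspa5: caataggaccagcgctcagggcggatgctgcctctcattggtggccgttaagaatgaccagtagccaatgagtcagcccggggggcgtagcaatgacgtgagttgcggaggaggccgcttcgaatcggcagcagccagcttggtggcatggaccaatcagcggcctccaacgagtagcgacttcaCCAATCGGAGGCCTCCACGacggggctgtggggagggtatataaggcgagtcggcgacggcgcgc

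Decreases were also frequent among genes of the dermal matrix. Of 35 measured collagens and matrix proteins, 19 fell and 2 rose (median -0.78), where 18.1% of all genes fell and 13.6% rose. All 21 had no overlap between the ages, as had 1914 of the 2088 called genes of all kinds. After quantile normalisation 23 fell and 3 rose (median -1.05), and without 9-week mouse 3 the median was -0.47. Eln, the precursor of elastic fibres, read 10019, 9827 and 9163.5 units on day 23 and 2458, 2889.5 and 2201 units at 9 weeks. All 9-week mice lay below all day 23 mice with little spread within either age, and Eln fell by 1.95 ± 0.09 (adjusted p = 5.33e-10). Its second probe set fell by 2.98 (adjusted p = 1.99e-06). Mfap2, a protein of the microfibrils on which elastin is laid, went from 2412, 2909.9 and 2886 units to 825, 748 and 549 units and fell by 1.97 ± 0.12 (adjusted p = 1.45e-08). Lox, the enzyme that cross-links elastin and collagen, went from 1204, 1436 and 1543 units to 370.5, 245 and 187.5 units and fell by 2.43 ± 0.20 (adjusted p = 4.59e-07), while a second probe set of Lox stood at -0.23 (adjusted p = 0.729).

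Among the fibrillar collagens, the minor chain Col5a1 fell by 1.64 ± 0.14 (adjusted p = 4.59e-07) and Col3a1 by 0.91 ± 0.10 (adjusted p = 4.27e-06), both chosen here after their values were seen. Col1a1, the main chain of collagen type I, was the brightest probe set on each day 23 array (25989.6, 25335 and 22033.5 units) and read 20027, 20764 and 39846 units at 9 weeks. It was lower in 9-week mice 1 and 2 and highest of all in mouse 3, with a difference of 0.06 ± 0.20 (adjusted p = 0.839) and -1.004 after quantile normalisation. Its direction thus turns with the scaling. Dcn, the proteoglycan decorin, stood at 0.21 (adjusted p = 0.0504) and at -0.51 after quantile normalisation. Fbln1 and Fbln2, fibulins of elastic fibres and basement membranes, were the members that rose, at 0.65 ± 0.15 and 0.39 ± 0.13. Col1a1, Dcn, Fbln1 and Fbln2 were likewise chosen after their values were seen. At the other ages Eln read 9486 units on average on day 17, 2425 at 5 months and 2725 at 1 year, beside 2516 at 9 weeks. Kdelr3 read 478, 536 and 408 units at the same ages, and day 23 had the highest mean of all 8 ages.

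**Figure D3:**
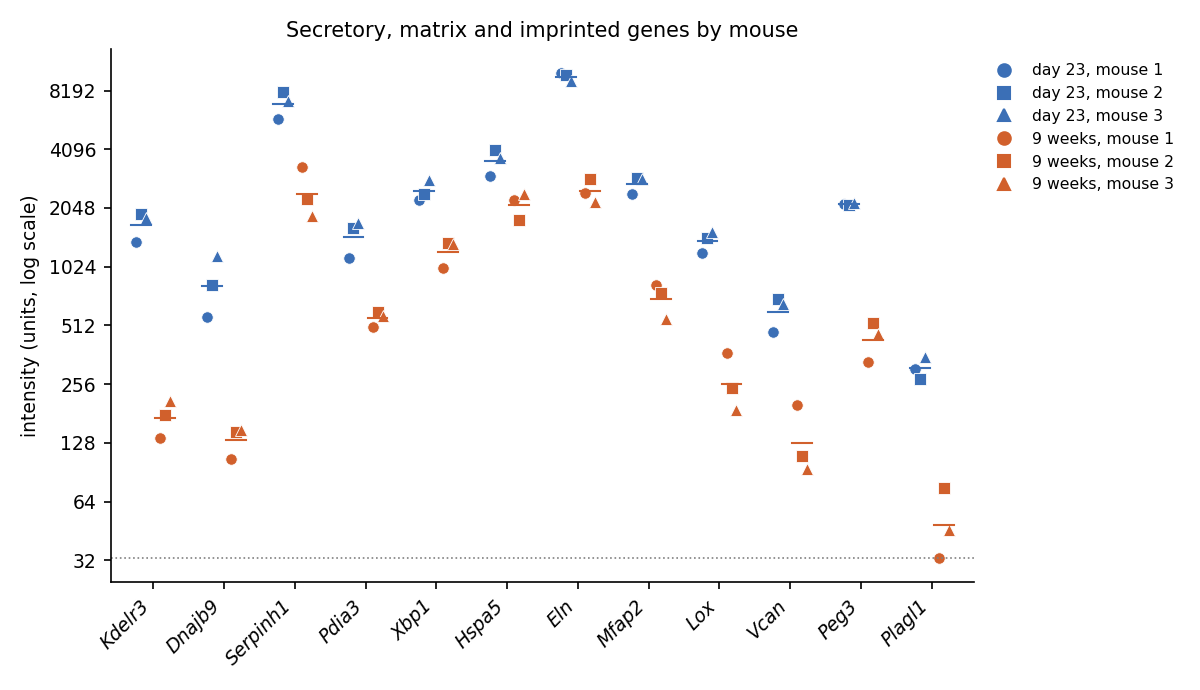
Intensity (log scale) by mouse of 6 genes of the endoplasmic reticulum, 4 of the matrix and 2 imprinted genes, with a bar at the mean of log2 values of each age. For all 12 genes the 3 mice at 9 weeks lie below the 3 of day 23, from a small step in Hspa5 to the widest in Kdelr3.

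Imprinted genes, which are expressed from the chromosome of 1 parent and are known for high levels in growing tissue, were collected in a list after their values were seen. Of 25 measured, 11 fell and 3 rose (median -0.45), and with the 6 arrays alone 6 fell and 1 rose. Leaving out 1 mouse at a time gave 9 to 11 that fell and 1 to 5 that rose, with a median of -0.28 without 9-week mouse 3, and raising the floor to the 40th percentile moved the median to -0.09. Peg3, a zinc finger protein, read 2135, 2115 and 2182.5 units on day 23 and 333, 525 and 464 units at 9 weeks, and its 3 probe sets stood at -1.45, -2.31 and -2.41. The brightest gave -2.31 ± 0.14 (adjusted p = 1.43e-08). Plagl1, another zinc finger protein, went from 306.5, 272 and 352 units to 32.9, 75.5 and 45.9 units and fell by 2.67 ± 0.32 (adjusted p = 1.53e-05). The ages were apart for both genes, and on day 1 the mean levels were 6424 and 1785 units.

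Igf2, the fetal growth factor, read 3564.5, 3573.5 and 2502.5 units on day 23 and 1285, 1741 and 1103 units at 9 weeks and fell by 1.23 ± 0.17 (adjusted p = 4.83e-05). Its mean had been 17850 units on day 1. Of the 12 measured genes of the insulin-like growth factor axis 4 fell and 3 rose. Igf2r, the receptor that clears Igf2, and Igfbp3 fell, as did Dlk1 (-0.92), and Igfbp4, a binding protein, rose by 0.65 ± 0.13 (adjusted p = 0.00102). The imprinted genes that rose were Nnat, Sgce and Gnas, at 1.31, 0.86 and 0.26. Gnas stood at -0.40 after quantile normalisation, so its direction turns with the scaling.

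Fat and lipid genes moved in both directions. Of 25 adipocyte genes 8 rose and 4 fell (median 0.05). Slc2a4, the insulin-dependent glucose transporter, read 598, 469.8 and 619 units on day 23 and 1486, 1473 and 1427 units at 9 weeks, with no overlap, and rose by 1.39 ± 0.17 (adjusted p = 1.31e-05). Cidec and Plin4, proteins of the lipid droplet, rose by 1.34 ± 0.20 and 1.28 ± 0.20 (adjusted p = 9.34e-05 and 0.000144). Thrsp, a protein induced with fatty acid synthesis, read 1668, 3841 and 1479 units and 10646, 7299 and 6709 units and rose by 1.93 ± 0.31 (adjusted p = 0.000216), or 1.78 after quantile normalisation. Against them, the fatty acid carrier Fabp4 fell by 1.02 ± 0.21 and the lipase inhibitor Angptl4 by 1.18 ± 0.23 (adjusted p = 0.00179 and 0.000974), both chosen after their values were seen. Adipoq, the hormone adiponectin, also chosen after its values were seen, was not called (0.14).

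Of 8 brown fat genes 2 fell and 1 rose, where 18.1% of all genes fell and 13.6% rose. Ucp1, the uncoupling protein, read 187, 437 and 54.2 units on day 23 and 13.3, 5.7 and 9.6 units at 9 weeks, where all 3 mice lay under the floor of 32.7 units. It fell by 2.33 ± 0.73 on that floor (adjusted p = 0.022), which is a lower bound, and a second probe set of Ucp1 stood at -0.40 (adjusted p = 0.511). Zic1, a transcription factor, fell by 0.93 ± 0.23 (adjusted p = 0.00524), and Cox8b, a muscle and brown fat form of a respiratory subunit, rose by 0.88 ± 0.15 (adjusted p = 0.000354).

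Among 16 genes of cholesterol synthesis 8 fell and none rose (median -0.65), where 18.1% of all genes fell. The count that fell was 5 after centring on medians and 4 with the 6 arrays alone. It was 4 to 5 without day 23 mouse 2 or 3 or 9-week mouse 1 or 2. Hmgcs1, which makes the substrate of the rate-limiting enzyme, read 2572, 3250 and 2209.7 units on day 23 and 868, 1019 and 1781 units at 9 weeks and fell by 1.18 ± 0.24 (adjusted p = 0.00124). Msmo1, a sterol oxidase, went from 1192, 1612 and 1778 units to 521, 495 and 972 units and fell by 1.26 ± 0.24 (adjusted p = 0.0008). Mouse 3 was the highest of the 9-week mice for both. The ages did not overlap for Hmgcs1 and Msmo1, which are among the 4 of the 8 fallen genes without overlap. Nsdhl, a later enzyme, fell by 0.73 ± 0.13 (adjusted p = 0.000529). Of 15 genes of fatty acid synthesis and sebaceous glands 7 fell and 1 rose. Mgst1, a microsomal glutathione transferase, fell from 2742, 3258 and 3348 units to 752, 1336 and 1192 units, a difference of -1.55 ± 0.23 (adjusted p = 9.7e-05). Elovl6, a fatty acid elongase, and Degs1, which makes ceramide, fell by 0.95 ± 0.23 and 0.87 ± 0.12 (adjusted p = 0.00408 and 7.24e-05).

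Skeletal muscle genes were higher. Of 34 measured, 21 rose and none fell (median 0.71). After quantile normalisation 13 rose and 1 fell (median 0.36), and with all 25 arrays in the fit 11 rose. Tnnt3, the troponin T of fast fibres, read 9614, 7713 and 8053 units on day 23 and 18979.8, 21504 and 20952 units at 9 weeks, with no overlap, and rose by 1.28 ± 0.10 (adjusted p = 4.59e-07), or 0.71 after quantile normalisation. Atp2a1, the calcium pump of fast fibres, read 21085, 17966 and 17172 units and 44551, 42335 and 39267 units and rose by 1.17 ± 0.10 (adjusted p = 7.69e-07), or 0.27 after it. Eno3, a muscle enolase, stood at 0.98 and 0.42. Much of the size of these increases thus depended on the scaling. At 5 months, where the highest value on an array was 25925 to 32416 units as on day 23, Tnnt3 and Atp2a1 averaged 9091 and 19910 units. At 1 year, where it was 69900.5 to 78877 units, they averaged 23800 and 38970 units. The summed intensity of the 34 muscle genes was 150280 units in 1-year mouse 3 and 559920 units in 1-year mouse 1. The highest values on these arrays were 77150.5 and 70277.8 units. On day 14 the muscle sum was 61804 to 70986 units, with highest values of 55128.8 to 64133.3 units. Whether the muscle level goes with the highest value was not tested. Of 14 genes of developing muscle 3 fell and 2 rose, where 18.1% of all genes fell and 13.6% rose. Actc1, the cardiac actin of immature fibres, fell by 0.83 ± 0.13 and Des, desmin, rose by 0.91 ± 0.14 (adjusted p = 0.000211 and 0.000139).

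Genes of oxidative phosphorylation rose for 27 of 59 measured and fell for 1 (median 0.31), and after quantile normalisation for 24 and 4 (median 0.25). Atp5e, a subunit of the ATP synthase, read 1722, 1514 and 1457 units on day 23 and 4238, 4846 and 4304 units at 9 weeks and rose by 1.51 ± 0.15 (adjusted p = 2.49e-06), or 1.44 after quantile normalisation. Uqcrc1 and Ndufb2, of complexes of the respiratory chain, rose by 0.74 ± 0.08 and 0.81 ± 0.10, and by 0.57 and 0.62 after it. Ribosomal protein genes, among the brightest on the arrays, rose for 17 of 26 and fell for 1 (median 0.60). After quantile normalisation 5 rose and 2 fell (median 0.08). Rps18, of the small subunit, read 14803, 13522 and 12915 units and 28778, 25806 and 26851 units, a difference of 0.98 ± 0.08 and of 0.28 after normalisation, and Rps3 and Rps24 passed in the first scaling (0.85 and 0.98) and not in the second (0.18 and 0.09).

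**Figure D4:**
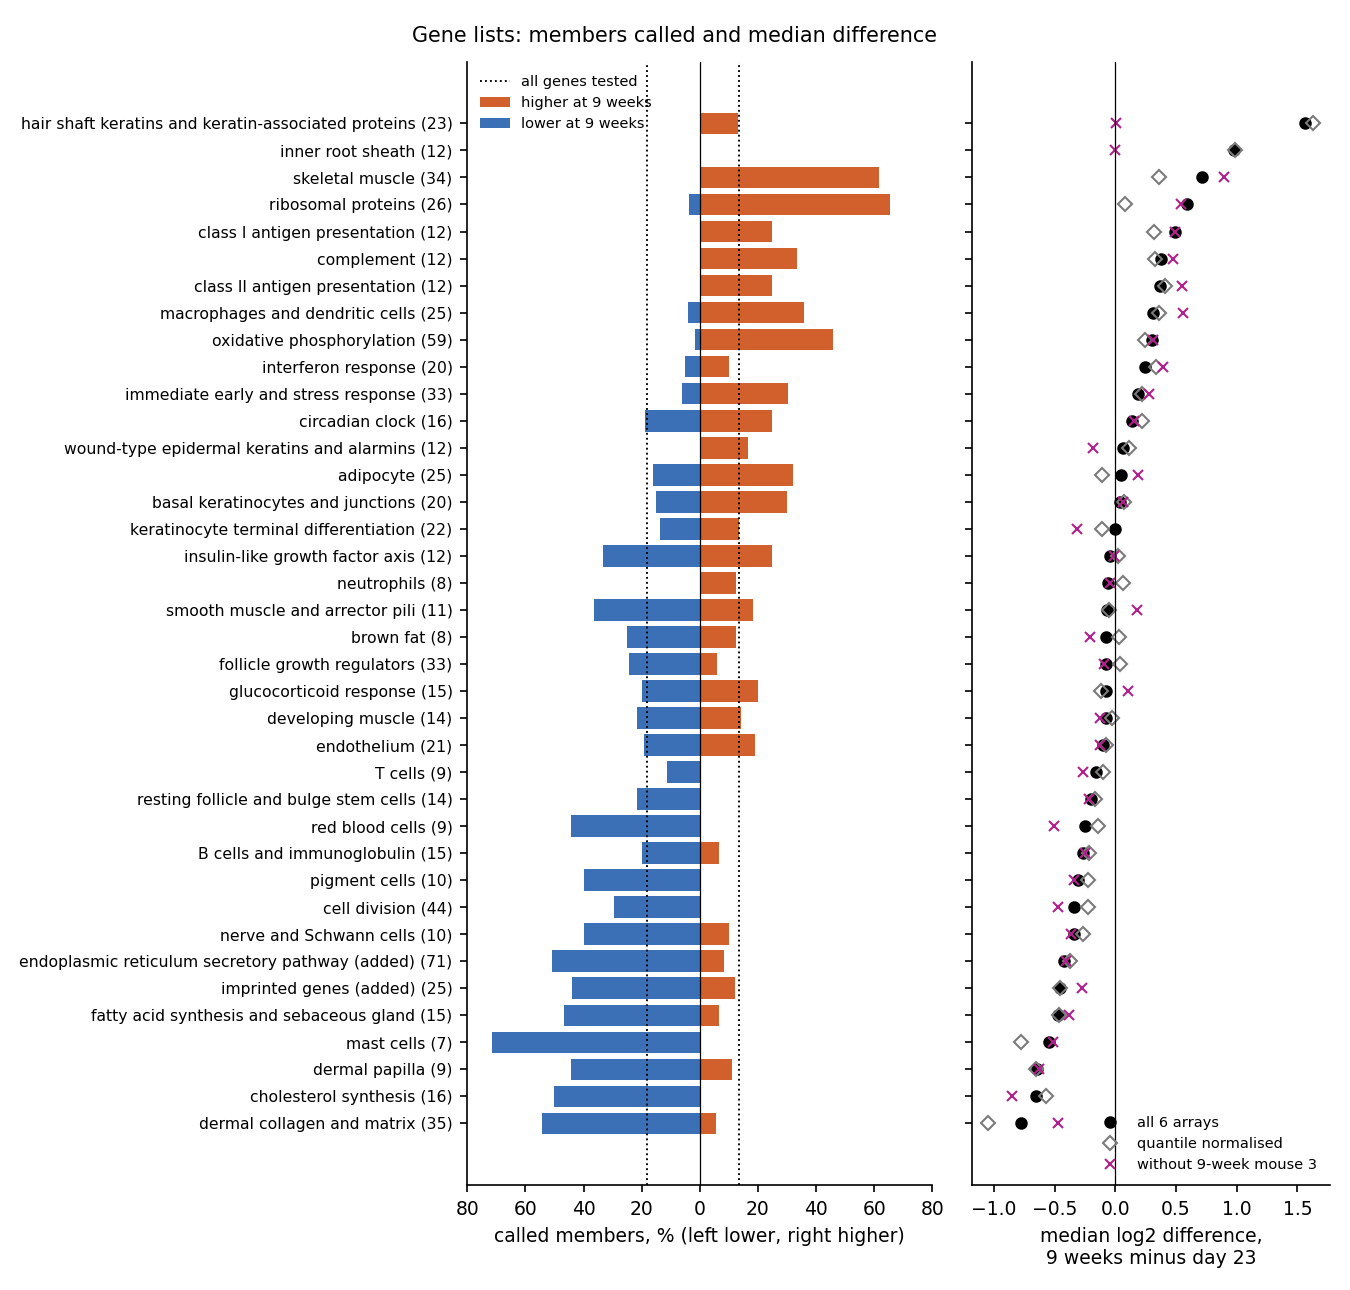
Gene lists ordered by median difference, with the number of measured members in brackets: at left the percent of members called lower (blue) and higher (orange), with dotted lines at 18.1% and 13.6% for all genes tested, and at right the median log2 difference. The purple crosses without 9-week mouse 3 leave the hair shaft and inner root sheath lists near 0, and the grey diamonds after quantile normalisation move the ribosomal list from 0.60 to 0.08.

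Epidermal genes were called in both directions. Of 22 genes of terminal differentiation 3 rose and 3 fell, counts near the shares of all genes (13.6% higher, 18.1% lower). Without 9-week mouse 3, 2 rose and 6 fell, and without 9-week mouse 1, 6 rose and 2 fell. Lor, the chief protein of the cornified envelope, read 11108, 10855 and 10997 units on day 23 and 26597, 26532.5 and 23356 units at 9 weeks, with no overlap, and rose by 1.21 ± 0.11 (adjusted p = 6.86e-07), or 0.50 after quantile normalisation. Krt77 rose by 0.59 ± 0.10 and stood at -0.10 after it, so its direction turned. Rptn, an envelope protein, read 214, 202 and 133 units and 60.9, 33.1 and 132 units and fell by 1.48 ± 0.37 (adjusted p = 0.00542). Of 20 genes of basal keratinocytes and junctions 6 rose and 3 fell, and with the 6 arrays alone 3 rose. Sfn, an epidermal 14-3-3 protein, went from 2943, 3143 and 2768 units to 4972, 5458 and 9921 units and rose by 1.13 ± 0.18 (adjusted p = 0.000162), highest in mouse 3. Lamb3, a laminin chain, rose by 0.65 ± 0.13 (adjusted p = 0.000961). Of 12 wound-type keratins and alarmins Krt6a and Krt17 rose, by 0.58 ± 0.09 and 0.62 ± 0.17, a count near the 13.6% of all genes. Neither passed after quantile normalisation (0.17 and 0.43, adjusted p = 0.239 and 0.0526), and the direction of Krt17 turned when its probe sets were averaged.

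Macrophage and dendritic cell genes rose for 9 of 25 measured and fell for 1 (median 0.31). With the 6 arrays alone 3 rose, and without 9-week mouse 1 4 rose, with a median of 0.10. C1qc, a chain of complement C1q made by macrophages, read 1684, 1621 and 1796.5 units on day 23 and 7018, 4895 and 2800.5 units in 9-week mice 1, 2 and 3. All 9-week mice were above all day 23 mice, but by different amounts, highest in mouse 1 and lowest in mouse 3. It rose by 1.43 ± 0.22 (adjusted p = 0.000121). C1qb and C1qa, the other chains, rose by 1.29 ± 0.29 and 1.00 ± 0.24 (adjusted p = 0.00264 and 0.00479), and a second probe set of C1qb fell by 0.81 (adjusted p = 0.0101). Ctsb, a lysosomal protease, rose by 0.69 ± 0.08 (adjusted p = 6.76e-06). Of 12 complement genes 4 rose and none fell, where 13.6% of all genes rose. C1qa, C1qb and C1qc are among these 4 and also stand in the macrophage list, so the lists are not independent.

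Of 12 class II antigen presentation genes 3 rose and none fell, and without 9-week mouse 3 6 rose. Cd74, the invariant chain, read 9418, 8277 and 7885 units and 24889, 18862 and 14411 units, again highest in mouse 1, and rose by 1.15 ± 0.18 (adjusted p = 0.000137), or 0.58 after quantile normalisation. H2-Aa, a class II chain, rose by 0.94 ± 0.20 and H2-DMa, a peptide loader, by 0.76 ± 0.19 (adjusted p = 0.00163 and 0.00496). Of 12 class I genes 3 rose. H2-D1 and H2-K1 stood at 0.95 and 0.74, and at 0.30 and 0.04 with no call after quantile normalisation, where Psme1, a proteasome activator, kept 0.53. The class I genes have near-identical relatives, and their probe sets disagreed: a further probe set of H2-K1 stood at -1.63 (adjusted p = 0.028).

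Mast cell genes went the other way, with 5 of 7 lower and none higher (median -0.55), where 18.1% of all genes were lower. The ages were apart for 3 of the 5. The count called lower was 3 with the 6 arrays alone and after centring on medians. It was also 3 without day 23 mouse 1 or 3 or 9-week mouse 1. Cpa3, the mast cell carboxypeptidase, read 1094, 1048 and 1265 units on day 23 and 264.5, 450.2 and 183 units at 9 weeks and fell by 2.02 ± 0.23 (adjusted p = 8.64e-06). Cma1, a chymase, went from 2551, 2200.1 and 1996 units to 742, 1393 and 452 units and fell by 1.53 ± 0.25 (adjusted p = 0.000254). For both genes 9-week mouse 2 was the highest of its age and still below every day 23 mouse, and second probe sets fell as well, at -0.93 and -1.85.

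Of 16 clock genes measured, 4 rose, 3 fell and 9 were not called, against 13.6% higher and 18.1% lower over all genes. Cry1, a repressor of the loop, read 451, 415 and 414 units on day 23 and 1043, 982 and 713 units at 9 weeks, with no overlap, and rose by 1.08 ± 0.12 (adjusted p = 1.01e-05). Nr1d1 and Nr1d2, the nuclear receptors that repress Arntl, fell by 1.16 ± 0.18 and 0.86 ± 0.12 (adjusted p = 0.000148 and 8.47e-05). Nr1d1 read 821, 787 and 812 units on day 23 and 462, 381 and 265 units at 9 weeks, where mouse 3 was lowest.

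Dbp, an output gene of the clock, fell by 0.85 ± 0.26 (adjusted p = 0.0202), from 469, 444 and 573 units to 205, 331 and 299.8 units. Nfil3, which opposes Dbp at the same sites, rose by 0.79 ± 0.22 (adjusted p = 0.0119), from 249, 256 and 209.8 units to 516, 332 and 403 units. The casein kinases Csnk1e and Csnk1d, which phosphorylate period proteins, rose by 1.06 ± 0.17 and 0.66 ± 0.14 (adjusted p = 0.000256 and 0.00152). The ages did not overlap for any of these 7 called genes, nor for 1914 of the 2088 called genes of all kinds. Per1, Per2 and Per3 were not called, at 0.18 ± 0.17, 0.38 ± 0.33 and -0.40 ± 0.20, nor were Arntl and Clock, the activators, at -0.34 ± 0.20 and -0.22 ± 0.18. Cry2, Tef, Rora and Bhlhe40 stood at 0.24, 0.33, -0.24 and 0.10. The hour at which skin was taken is not stated by the labels.

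**Figure D5:**
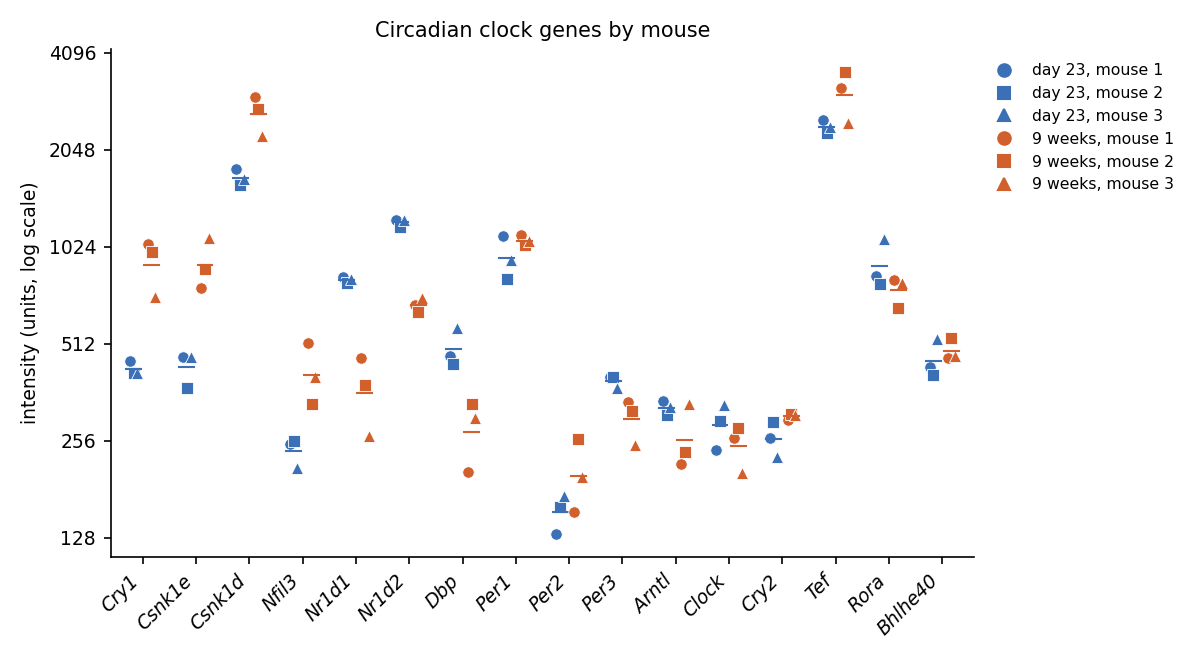
Intensity (log scale) of the 16 measured clock genes by mouse, with a bar at the mean of log2 values of each age. Cry1, Csnk1e, Csnk1d and Nfil3 are higher in all 3 mice at 9 weeks, Nr1d1, Nr1d2 and Dbp are lower in all 3, and most of the others overlap.

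The E-box, to which the activators Clock and Arntl bind, was present in 3 of 13 clock promoters (23.1%), those of Per1, Cry1 and Tef, against 6.86% of all genes. Only Cry1 of the 3 was called. Its promoter (chr10:85185055-85185304, minus strand) is shown with the E-box in capitals, from 60 bases before the start.
Cry1: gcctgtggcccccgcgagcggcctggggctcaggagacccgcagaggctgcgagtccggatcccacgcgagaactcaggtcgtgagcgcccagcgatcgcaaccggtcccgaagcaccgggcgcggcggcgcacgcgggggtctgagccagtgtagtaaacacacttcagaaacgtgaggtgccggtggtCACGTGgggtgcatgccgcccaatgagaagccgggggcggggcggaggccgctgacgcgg

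Genes of the immediate early and stress response rose for 10 of 33 and fell for 2. The metallothioneins Mt1 and Mt2, which bind zinc, rose by 1.10 ± 0.22 and 1.20 ± 0.16 (adjusted p = 0.00111 and 3.14e-05), and Mt2 read 9229.9, 8389 and 9633 units on day 23 and 30119.7, 18728 and 15922 units at 9 weeks. After quantile normalisation the differences of Mt1 and Mt2 were 0.92 and 0.58. Jund, a subunit of the factor AP-1, rose by 0.88 ± 0.11 (0.39 after quantile normalisation) and Ier3 by 0.82 ± 0.16 (adjusted p = 2.2e-05 and 0.000812). Fos, another AP-1 subunit, chosen after its values were seen, fell by 1.02 ± 0.21 (adjusted p = 0.00165). Of 15 glucocorticoid-responsive genes 3 rose and 3 fell, against 13.6% higher and 18.1% lower over all genes. Cdkn1a, an inhibitor of the cell cycle, rose by 0.76 ± 0.12 (adjusted p = 0.000232).

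The largest increase was in Inmt, a methyltransferase of small amines. It read 187, 116 and 191 units on day 23 and 3795, 1789 and 2467 units at 9 weeks, every 9-week mouse far above every day 23 mouse, and it rose by 3.99 ± 0.48 (adjusted p = 1.49e-05), 15.9-fold. Its mean was at most 78.7 units from day 1 to day 17 and 1301 and 745 units at 5 months and 1 year. Plac8 read 1224, 1005 and 775 units and 15799, 4064 and 3589 units, highest in mouse 1, and rose by 2.64 ± 0.38 (adjusted p = 8.25e-05), or 2.52 after quantile normalisation. Nos3, the nitric oxide synthase of endothelium, went from 53.5, 57.7 and 49.0 units to 294, 261 and 208 units and rose by 2.24 ± 0.30 (adjusted p = 4.26e-05). Its mean at 5 months was 30.4 units, below that of day 23.

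Ptp4a3, a phosphatase, read 858, 664 and 713 units on day 23 and 2658, 2753 and 2907 units at 9 weeks and rose by 1.90 ± 0.18 (adjusted p = 1.7e-06). Etv2, a transcription factor of early vessels, was under the floor in all day 23 mice (25.4, 27.0 and 27.0 units) and read 219, 171 and 192 units at 9 weeks, a rise of at least 5.91-fold over the floor. Ifit3, an interferon-induced gene, and Cxcl13, a chemokine that attracts B cells, rose by 2.46 ± 0.44 and 1.95 ± 0.42 (adjusted p = 0.000449 and 0.00189), though of 20 interferon-response genes only 2 rose and 1 fell. Mup3 and Mup5, of the major urinary protein family, rose by 2.02 ± 0.51 and 1.99 ± 0.53 (adjusted p = 0.00592 and 0.00906). Members of that family are nearly identical and their probe sets may share transcripts. Clcn1, the chloride channel of muscle, and Krt18, a keratin of simple epithelia, were also among the 12 largest, at 1.96 ± 0.51 and 1.91 ± 0.47. Krt18 was not called with the 6 arrays alone (adjusted p = 0.0869).

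The remaining large decreases were of other kinds. Kcna1, a potassium channel of axons, read 420, 342 and 479 units on day 23 and 41.0, 115 and 22.7 units at 9 weeks and fell by 2.93 ± 0.41 (adjusted p = 6.77e-05). Apoc4, an apolipoprotein, read 176, 321.5 and 211 units on day 23 and was under the floor in all 9-week mice (25.5, 30.7 and 25.5 units), at least 6.98-fold lower. Mmp9, a matrix protease, went from 214, 97.5 and 225 units to 37.3, 28.8 and 29.6 units and fell by 2.29 ± 0.36 (adjusted p = 0.000158). Lhpp, a phosphatase, fell by 2.10 ± 0.49 (adjusted p = 0.00345). Apart from Kcna1 in mouse 2 and Lhpp in mouse 1 (64.8 units), the 9-week values of these 4 genes were at or near the floor of 32.7 units, and none of the 4 had overlapping ages.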

How the data were processed

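Total RNA of whole back skin, from samples labelled as 25 mice of 8 ages, was measured on 1-colour oligonucleotide arrays with 12488 probe sets, 66 of them controls. The authors deposited 1 summarised intensity per probe set and array on a linear scale. For the software, the scanner and the scaling target, the sources used here give no name. The values were raised to a floor of 32.7 units (the 20th percentile of the table) and log2-transformed, and probe sets above 127.8 units (the 40th percentile) on at least 3 arrays were kept, 8835 in all. The number of arrays, 3 per age, limits the precision.

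One mean per age was fitted with limma 3.58.1 (R 4.3.3, eBayes with an intensity trend) to the 18 arrays of the ages up to 9 weeks, which share 1 estimate of the spread with 12 residual degrees of freedom, and 9 weeks was contrasted with day 23. On data made with known differences the fit was tested before use. Of the probe sets, 10855 carried 1 gene symbol in the platform annotation, 396 several and 1237 none, and 10839 matched the RefSeq gene table. Where several probe sets carried a symbol, the one with the highest mean over the 25 arrays stood for the gene. Of 1177 genes with more than 1 probe set kept, 36 had calls in opposite directions and 529 had some called and others not. Genes named by rule are the 12 largest increases and decreases among called genes without overlap and up to 3 called members of each list by adjusted p. All clock and sex-linked genes, the 10 genes farthest above the others in 9-week mouse 3, and called or preset follicle genes complete the rule. Other genes were chosen later, after their values were seen. Further members of the secretory and imprinted lists are among these and are not each marked. The members and lists were chosen with earlier results of these data known. The labels give mouse numbers at each age, and the samples were treated as unpaired. The deviations of same-numbered mice correlated at 0.1, -0.05 and 0.143, and those of differently numbered mice at -0.175 to 0.0815. With 3 mice per age these values cannot show whether same-numbered samples were handled together. The alternatives tried were quantile normalisation, centring on medians, the floor, the filter, a pseudocount of 32, the intensity trend, array weights, other sets of arrays, a replicate block, the Xist level, averaged probe sets and each mouse left out.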

Additional observations from a re-analysis of the deposited data

How the results depend on the processing

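The counts of probe sets higher and lower stayed within 1.5 times of 1116 and 1627 in every alternative tried except 1: with the 6 arrays fitted alone, which leaves fewer residual degrees of freedom, 660 were higher and 925 lower. Leaving out 1 mouse at a time gave 872 to 1195 higher and 1291 to 1716 lower. A replicate block on the mouse numbers gave 1105 higher and 1595 lower and changed no other call among the named genes; all 25 arrays in the fit gave 845 and 1355. Of the 123 named genes that were called, 26 no longer passed with the 6 arrays alone, 16 with all 25 arrays, 8 after quantile normalisation and 12 with probe sets of a gene averaged. The direction turned for Krt77 (-0.104) after quantile normalisation and for H2-K1 (-0.261), Igf1 (-0.085), Krt17 (-0.197) and Notch1 (-0.205) with probe sets averaged; apart from the averaging itself, which takes in the dimmer probe sets, the cause was not tested. Signal near the floor of 32.7 units limits the size of differences of dim genes, which are then lower bounds.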

Other observations

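Vessel, blood and nerve genes gave smaller groups. Of 9 genes of red blood cells 4 fell and none rose. Hbb-b2, a haemoglobin chain, read 1894, 2340.4 and 2087 units on day 23 and 603, 829.9 and 994 units at 9 weeks and fell by 1.41 ± 0.21 (adjusted p = 0.000125), with no overlap between the ages. Alas2, the haem enzyme of red cells, and Hba-a1 fell by 1.44 ± 0.29 and 0.77 ± 0.19 (adjusted p = 0.00141 and 0.00494). Of 10 nerve and Schwann cell genes 4 fell and 1 rose. Pmp22 and Mal, proteins of myelin, fell by 0.71 ± 0.14 and 1.05 ± 0.24, and Gap43, a protein of growing axons, fell by 1.05 ± 0.25 (adjusted p = 0.000753, 0.00308 and 0.00399). Of 21 endothelial genes 4 rose and 4 fell, near the shares of all genes (13.6% and 18.1%), and 2 fell after quantile normalisation or without day 23 mouse 1 or 2 or 9-week mouse 3. The junction protein Cdh5 fell by 0.77 ± 0.16 and Flt4, a receptor of lymphatic vessels, by 1.05 ± 0.22 (adjusted p = 0.00138 and 0.00166), while Nos3 rose. Of 11 smooth muscle genes 4 fell and 2 rose, among them Cnn2, a calponin, which fell by 1.33 ± 0.15, and Mylk, the myosin light chain kinase, which fell by 0.85 ± 0.12 (adjusted p = 8.58e-06 and 5.77e-05).

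Lymphocyte genes are given beside the shares of all genes, 13.6% higher and 18.1% lower. Of 9 T cell genes 1 fell, Zap70, a kinase of the T cell receptor, by 0.69 ± 0.20 (adjusted p = 0.0145). Of 15 genes of B cells and immunoglobulin 3 fell, among them Xbp1 described above, and 1 rose, close to those shares. Ighm, the heavy chain of immunoglobulin M, read 1073, 1147 and 891 units on day 23 and 2760.2, 2134 and 1115 units at 9 weeks and rose by 0.86 ± 0.23 (adjusted p = 0.0081), with an overlap in mouse 3. Cd79a, of the B cell receptor, read 269, 332 and 104 units and 69.7, 52.7 and 149.5 units, with overlapping ages, and fell by 1.36 ± 0.45 (adjusted p = 0.0302). Of 8 neutrophil genes 1 rose, Prtn3, a granule protease (1.22 ± 0.44, adjusted p = 0.0446). Glycam1, a mucin-like ligand made by lymph node vessels and chosen after its values were seen, read 585, 1346 and 14.5 units in day 23 mice 1, 2 and 3 and 24.6, 15.9 and 20.6 units at 9 weeks. It was high in day 23 mice 1 and 2 alone.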
